A study of Homo sapiens with 12 samples.

Results

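E2 was compared directly with TNFα in MDA-MB-231-ERβ cells, without any vehicle library in the contrast, to find which gene programs part the 2 treatments. MDA-MB-231 is a mesenchymal TNBC cell line, and the derivative used here carries full length ERβ as a transgene that doxycycline (dox) switches on. Every dish was seeded in medium with charcoal-stripped serum and received dox. E2 libraries came from cells given 1 nM E2 (17β-estradiol) for 5 days, and TNFα libraries from cells given vehicle (ethanol) for 5 days, to which 20 ng/ml TNFα was given in the last 3 h. Media were refreshed after 3 days. The agent and the length of exposure therefore differ together between the groups and cannot be told apart. Both groups have 3 libraries, so that 6 of the 12 libraries of the study entered the comparison. The 3 libraries of cells given E2 for 5 days and TNFα in the last 3 h (E2+ TNFα) did not enter it and were read beside it. All libraries are of 1 line with an induced receptor, dishes were plated in triplicate, and nothing in the labels says that the replicates were grown on different days, so p-values measure the spread between these samples, which may be technical. The study's methods name batches, corrected with housekeeping genes, but the sources used here do not say which library was in which batch. In bulk RNA, fewer cells that express a gene and less of its RNA per cell cannot be told apart.

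ERβ is a nuclear receptor that, when it binds E2, is directed to estrogen response elements in DNA and to other transcription factors, and changes transcription over hours to days. TNFα binds a receptor at the cell surface, which through the IKK kinases releases NFκB dimers such as p65/p50 into the nucleus within minutes. NFκB then induces cytokines, chemokines and its own inhibitors, which switch the signal off again. Integrated stress signaling, which acts through the translation-controlled factor ATF4, and interferon signaling, which acts through STAT and IRF factors, are separate programs that inflammatory or hormonal treatment can also move.

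The deposited values are whole reads that the authors assigned to genes, and levels are given here as CPM, counts scaled to the library total, on the TMM scale of the 6 libraries. After exact repeats and second symbols of a locus were dropped, 11303 of 12451 genes had an RPKM (reads per kilobase of gene, scaled to the library total) of at least 1 in at least 3 of the 12 libraries and were tested. Reads assigned per library were 7.65 to 15.8 M (M, mega) for E2 and 19.5 to 30.5 M for TNFα. Spearman correlations across genes were 0.973 to 0.984 within E2, 0.993 to 0.994 within TNFα and 0.928 to 0.944 between them. Principal component 1 (69.5% of the variance) parted E2 from TNFα, and component 2 (17.3%) set E2 replicate 2, which has the fewest reads, apart from the other E2 libraries. The difference between E2 and TNFα showed almost no trend with exon GC content (Spearman rho across genes -0.0147) and a weak one with gene length (-0.195). Vehicle libraries minus E2 or TNFα libraries gave rho of -0.662 and -0.713 with GC content, so no vehicle level is set beside the results. Of markers of the line, VIM, CD44 and AXL, which mark its mesenchymal state, lay between 772 and 1814 CPM in all 6 libraries. Of genes listed as low in the line, ERBB2 lay between 81.1 and 112 CPM and EPCAM between 5.92 and 11.97 CPM. CDH1, also listed as low, was at 30.5, 33.9 and 50.4 CPM with E2 and 1.74, 2.01 and 1.7 CPM with TNFα. SPARC, listed as expressed, and ESR1 and PGR, listed as low, had no entry and could not be checked. The fibroblast markers COL1A1, COL1A2 and LUM lay at most at 5.77 CPM. CD68, a lysosomal gene on the list for immune cells, lay between 86.9 and 102 CPM in every library. Markers of lymphocytes and endothelial cells were not analysed here.

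Between E2 and TNFα, 666 genes (5.89% of those tested) were significantly regulated, here meaning a log2 fold change of 1.5 or more in size in the quasi-likelihood test of edgeR, with p below 0.05 and a Benjamini-Hochberg adjusted p no higher than 0.1. Of these, 375 were higher in E2 (3.32%) and 291 higher in TNFα (2.57%). Log2 fold changes, also called log2 differences, are E2 minus TNFα throughout, so that positive values mean higher in E2, and are given ± standard error. By fitted values, 42 genes were at a log2 fold change of at least 5 and 10 at -5 or below. These counts include genes with almost no reads in 1 group, where the fitted size is not reliable. For 21 of the genes higher in E2 and 7 of those higher in TNFα, every library of the other group had at most 3 counts. For these 28 genes no fitted fold change is given, and for 6 of them the bound against 3 counts per library was under the threshold of size. Where the other group had no reads at all, the difference is a bound against 3 counts per library, and otherwise a ratio of summed counts with its exact 95% interval, both of which cover counting error only. For 649 of the 666 genes the 3 E2 libraries did not overlap the 3 TNFα libraries, which was so for 47.4% of all genes tested. By the adjusted p alone, 2461 genes (21.8%) were higher in E2 and 2509 (22.2%) higher in TNFα. When an unwanted factor was estimated from housekeeping genes, on a list chosen here, and added to the fit, 34.9% of significantly regulated genes were higher in E2 in place of 56.3%. That factor had a correlation of 0.977 in size with the treatment itself over the 6 libraries.

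**Figure D1:**
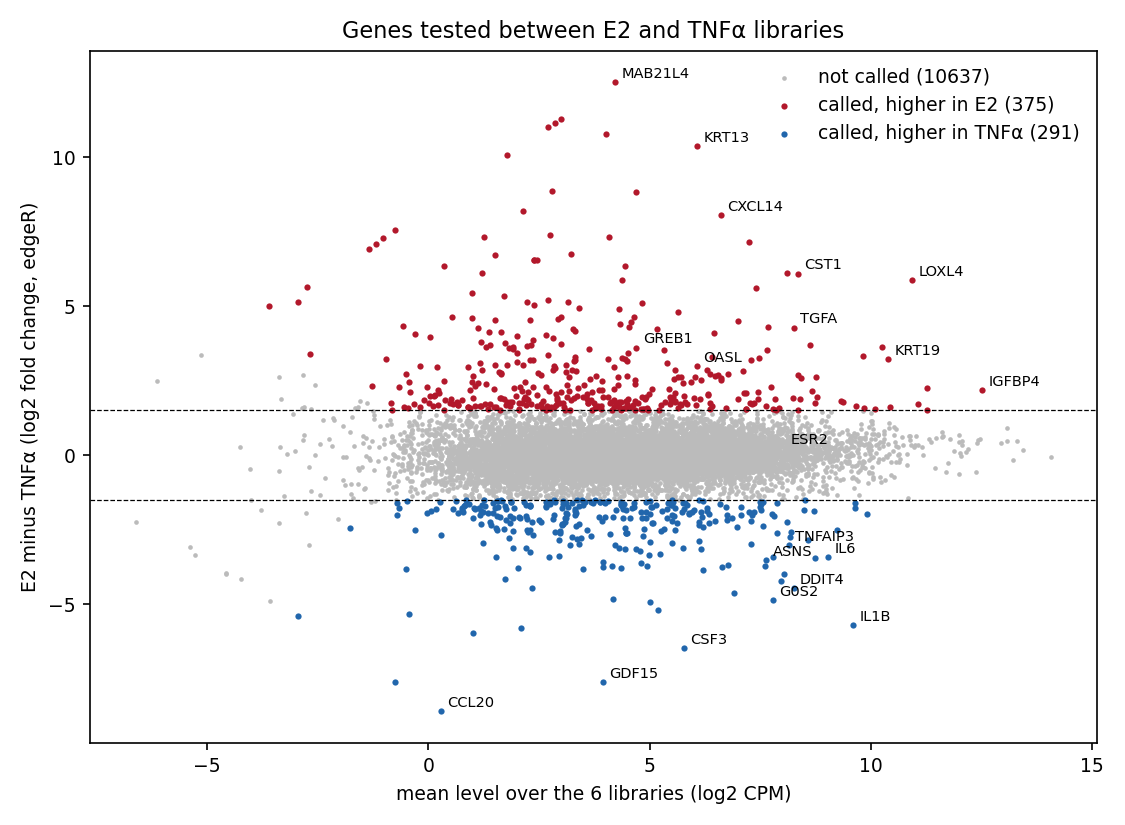
Each point is a gene, with its mean level over the 6 libraries (log2 CPM) on the x axis and its log2 fold change, E2 minus TNFα, on the y axis. Red and blue points are the 375 genes higher in E2 and the 291 higher in TNFα, dashed lines are the thresholds of 1.5, and genes without reads in these 6 libraries are not drawn. Several of the largest positive values belong to genes with no reads in TNFα libraries.

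ESR2, which encodes the induced receptor (chromosome 14, 64172925 to 64338550, hg38), was present at 305, 276 and 276 CPM in the E2 libraries and 271, 241 and 219 CPM in the TNFα libraries. Its E2 libraries were all above its TNFα libraries, but the log2 fold change of 0.23 did not pass the test (adjusted p = 0.19). The p65 gene RELA (chromosome 11, 65653596 to 65662972) was at 293, 380.0 and 299 CPM with E2 and 304, 285 and 316 CPM with TNFα, and the groups overlapped (0.10 ± 0.137, adjusted p = 0.604). Neither receptor nor p65 transcript therefore parted the groups past the thresholds. In the E2+ TNFα libraries ESR2 was higher than in both groups, at 417, 391 and 468 CPM.

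Targets of NFκB were higher in TNFα more often than all genes tested, though most of the 291 genes higher in TNFα are not on this list. Of 54 tested NFκB target genes (62 listed), 26 (48.1%) were higher in TNFα and 1 (1.85%), the chemokine CCL5, higher in E2. Of all genes tested, 2.57% were higher in TNFα and 3.32% higher in E2. The median log2 fold change of the targets was -1.42 against -0.02 for all genes tested. By the adjusted p alone, 42 of the 54 were higher in TNFα and 7 higher in E2. With the housekeeping factor in the fit 18 were called higher in TNFα. Of 22 tested cytokine ligands, 12 were higher in TNFα and 1 higher in E2 (median -2.32), and of 12 chemokine ligands 6 were higher in TNFα and 2 higher in E2 (median -1.30, or -1.07 with genes near 0 at their bounds). These lists share members.

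Among the cytokines, TNF itself (chromosome 6, 31575567 to 31578336) was at 1.75, 0.867 and 0.853 CPM in E2 and 37.2, 35.3 and 32.6 CPM in TNFα libraries. All 3 TNFα libraries were far above all E2 libraries, with a log2 difference of -4.82 ± 0.26, adjusted p = 1.26e-09. IL1B, the secreted form of interleukin 1 that activates NFκB in neighbouring cells (chromosome 2, 112829751 to 112836779), was at 26.6, 24 and 37.1 CPM with E2 and 1475, 1475 and 1642 CPM with TNFα. It was one of the most abundant genes higher in TNFα, and its log2 difference was -5.70 ± 0.193, adjusted p = 8.73e-12. IL1A, its relative that is held at the membrane or in the nucleus, was at 14.4, 5.34 and 7.34 CPM in E2 and 190.0, 285 and 219 CPM in TNFα libraries, and the groups did not overlap (-4.61 ± 0.277, adjusted p = 4.96e-09). The colony stimulating factors parted the groups as well. CSF3, which drives the production of neutrophils, was at 0.712, 1.88 and 1.37 CPM with E2 and 109, 96.5 and 118 CPM with TNFα. CSF2, which acts on granulocytes and macrophages, was at 68.1, 73.7 and 73.1 CPM with E2 and 832, 806 and 709 CPM with TNFα. Their log2 differences were -6.48 ± 0.247, adjusted p = 3.11e-11 and -3.45 ± 0.141, adjusted p = 6.19e-11, without overlap for either. IL6, which signals through STAT3, was at 89, 81.5 and 98.6 CPM in E2 and 939, 884 and 1052 CPM in TNFα libraries, a log2 difference of -3.42 ± 0.147, adjusted p = 1.04e-10. TNFSF9, the ligand of the costimulatory receptor CD137, was the only cytokine of the list that was higher in E2, at 23.2, 40.6 and 27.2 CPM against 9.32, 11.1 and 10.6 CPM. Its log2 fold change of 1.54 was close to the threshold and was below it without E2 replicate 2 (1.28), without TNFα replicate 1 (1.47). It was also below it when libraries were scaled by size alone (1.41).

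The study followed IL1B, CXCL2, IL11, CXCL8, IL6, ALOX5AP and CXCL1 as p65 targets, and all 7 were higher in TNFα. The study chose these genes in the same cells, so their number is no independent evidence. IL11, a cytokine of the IL6 family, was at 22.5, 27.7 and 26.8 CPM with E2 and 445, 313 and 669 CPM with TNFα (-4.22 ± 0.24, adjusted p = 2.59e-09). ALOX5AP, which presents arachidonic acid to 5-lipoxygenase, was low in both groups, at 2.2, 3.76 and 0.939 CPM and 7.17, 4.78 and 8.88 CPM (-1.66 ± 0.397, adjusted p = 0.0041). Its groups did not overlap, but the difference was below the threshold without E2 replicate 3 (-1.28) or TNFα replicate 3 (-1.44). CXCL8, which attracts neutrophils, was at 66.2, 12.6 and 31.8 CPM with E2 and 314, 559.7 and 347 CPM with TNFα. All of its TNFα libraries were above all E2 libraries (-3.43 ± 0.396, adjusted p = 7.16e-06).

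The other chemokines of the cluster on chromosome 4 followed the same order. CXCL1 (chromosome 4, 73869392 to 73871302) was at 59.5, 65.7 and 73.4 CPM in E2 and 385, 431 and 401 CPM in TNFα libraries (-2.62 ± 0.139, adjusted p = 1.15e-09). CXCL2 (chromosome 4, 74097035 to 74099280) was at 12.6, 16.8 and 18.9 CPM with E2 and 182, 205 and 223 CPM with TNFα (-3.67 ± 0.173, adjusted p = 2.77e-10), and CXCL3 (chromosome 4, 74036589 to 74038773) at 1.88, 2.46 and 2.05 CPM and 55.7, 72 and 60.2 CPM (-4.91 ± 0.21, adjusted p = 9.38e-11). These 3 are close copies of each other, so how reads were split among them is uncertain, but none of the groups overlapped. CCL20, which attracts cells with the receptor CCR6, had no reads in any E2 library and was at 2.19, 3.18 and 1.95 CPM in TNFα libraries, at least 8.28-fold higher. CCL2, which attracts monocytes, was at 0.129, 0.144 and 0 CPM and 1.52, 1.54 and 0.898 CPM, 15.7-fold (95% interval 5.24 to 77.2) higher in TNFα. CCL5 went the other way at low level, with 0.647, 1.59 and 1.45 CPM in E2 and 0.127, 0.0925 and 0.349 CPM in TNFα libraries (2.72 ± 0.718, adjusted p = 0.00728). CXCL14, a chemokine of epithelia, was far higher in E2, at 178, 211 and 192 CPM against 0.793, 0.586 and 0.799 CPM (8.06 ± 0.199, adjusted p = 6.78e-13).

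The promoters of 4 of these chemokines, of IL6 and of 2 regulators of the pathway hold an NFκB motif, and the bases around it are printed to show which letters matched and how far from the start site. Sequences are from RefSeq (GRCh38.p14), 5′ to 3′ on the strand of the gene, with each match of GGGNNTTTCC on either strand in capitals. The windows are chr2:227813738-227813797, plus strand for CCL20, chr4:73869289-73869348, plus strand for CXCL1, chr4:74099239-74099298, minus strand for CXCL2, chr4:74038734-74038793, minus strand for CXCL3, chr7:22727102-22727161, plus strand for IL6, chr6:137867179-137867238, plus strand for TNFAIP3 and chr4:102501285-102501344, plus strand for NFKB1.
CCL20: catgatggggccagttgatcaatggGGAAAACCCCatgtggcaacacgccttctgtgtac
CXCL1: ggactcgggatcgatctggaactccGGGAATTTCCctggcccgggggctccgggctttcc
CXCL2: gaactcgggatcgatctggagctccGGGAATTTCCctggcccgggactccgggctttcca
CXCL3: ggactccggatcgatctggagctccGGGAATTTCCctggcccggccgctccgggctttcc
IL6: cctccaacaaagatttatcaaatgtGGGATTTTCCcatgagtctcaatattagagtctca
TNFAIP3: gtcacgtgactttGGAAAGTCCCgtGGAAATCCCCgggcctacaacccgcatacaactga
NFKB1: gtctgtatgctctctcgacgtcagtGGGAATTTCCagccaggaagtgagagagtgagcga
The match starts at position -79 from the RefSeq start site in CCL20, CXCL1 and CXCL3, at -78 in CXCL2, at -73 in IL6, at -55 in TNFAIP3 and at -49 in NFKB1, counted for the match nearest the start site. RefSeq start sites can differ from the ends of the gene coordinates given here, as they do for CXCL2, CXCL3 and TNFAIP3. TNFAIP3 holds 2 matches. Of the 22 NFκB target genes higher in TNFα that have a promoter in the table, 8 (36.4%) hold the motif within 250 bases before and 50 after the start, against 2.31% of the 8971 promoters of tested genes. Of the 23 tested NFκB target genes that were not called and have a promoter, 7 (30.4%) hold it too. A match describes letters and is not evidence of binding.

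Genes of the TNF receptor complex passed the thresholds about as often as all genes tested (5.89% in either direction). Of the 18 tested, 1 (5.56%) was higher in TNFα and none higher in E2, with a median of 0.02. That gene was TNFRSF1B, the second TNF receptor, at 9.12, 10.5 and 8.62 CPM with E2 and 33.9, 28.3 and 35.6 CPM with TNFα (-1.80 ± 0.181, adjusted p = 1.59e-06). Of 11 subunits and kinases, RELB and NFKB1 were higher in TNFα, both of which encode NFκB subunits and are targets of NFκB. RELB was at 29.6, 35.8 and 34.1 CPM and 140.0, 117 and 129 CPM (-1.96 ± 0.142, adjusted p = 4.39e-08), and NFKB1 at 29.8, 25.7 and 26.7 CPM and 86.2, 87.8 and 88.3 CPM (-1.67 ± 0.138, adjusted p = 1.99e-07). In both genes every TNFα library was more than every E2 library. TRAF1, an adaptor of TNF receptors and an NFκB target, differed more, at 27.8, 38.3 and 27.7 CPM against 524, 513 and 452 CPM (-4.00 ± 0.166, adjusted p = 7.22e-11).

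Of 15 feedback inhibitors of NFκB, 3 (20%) were higher in TNFα and none higher in E2, and the median was -0.55. Of all genes tested, 2.57% were higher in TNFα and 3.32% higher in E2. TNFAIP3, which encodes the deubiquitinase A20 (chromosome 6, 137866317 to 137883314), was at 64.7, 59.2 and 64 CPM in E2 and 474, 474 and 572 CPM in TNFα libraries (-3.01 ± 0.142, adjusted p = 2.77e-10). NFKBIZ, a nuclear IκB protein, was at 15.4, 20.4 and 18.9 CPM and 65.5, 80.7 and 79.5 CPM (-2.06 ± 0.163, adjusted p = 1.21e-07). ZC3H12A, an RNase that degrades cytokine transcripts, was at 75.1, 108 and 91 CPM and 274, 265 and 272 CPM, with a log2 fold change of -1.57 that was under the threshold without E2 replicate 1 (-1.41). NFKBIA, which encodes IκBα, was at 150.3, 129 and 140.5 CPM with E2 and 343, 357 and 346 CPM with TNFα, and its log2 fold change of -1.32 was under the threshold of size (adjusted p = 1.03e-06). NFKBIA was past it after removal of GC and length trends (-1.52) and with the housekeeping factor (-1.87). ICAM1, an adhesion molecule for leukocytes, was likewise under it at -0.93 (adjusted p = 9.26e-05), and BIRC3, an inhibitor of apoptosis that NFκB induces, had the opposite sign at 1.26 (adjusted p = 0.0003). With the housekeeping factor BIRC3 was at -0.98 and ICAM1 at 0.13, neither of which passed the test.

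Targets of ATF4 were a second group higher in TNFα. Of 29 tested ATF4 targets (32 listed), 15 (51.7%) were higher in TNFα and none higher in E2, with a median log2 fold change of -1.62. Of all genes tested, 2.57% were higher in TNFα and 3.32% higher in E2. By the adjusted p alone, 24 were higher in TNFα and 3 higher in E2. With the housekeeping factor in the fit, 7 were called higher in TNFα and 2 higher in E2. ATF4 itself (chromosome 22, 39520559 to 39522686) was at 342, 273 and 339.6 CPM with E2 and 713, 682 and 707 CPM with TNFα, a log2 fold change of -1.14 under the threshold of size (standard error 0.135, adjusted p = 9.47e-06). All TNFα libraries of ATF4 were above all E2 libraries.

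Genes of amino acid supply formed the metabolic side of that list. ASNS, asparagine synthetase (chromosome 7, 97852117 to 97872542), was at 42, 22.5 and 30.4 CPM in E2 and 376, 307 and 417 CPM in TNFα libraries (-3.51 ± 0.205, adjusted p = 3.28e-09). PHGDH and PSAT1, the first and the next enzyme of serine synthesis, were at 2.98, 3.47 and 1.96 CPM against 36.3, 30.8 and 46.4 CPM and at 67, 49.5 and 51.7 CPM against 242, 255 and 276 CPM. Their log2 differences were -3.78 ± 0.244, adjusted p = 1.15e-08 and -2.19 ± 0.148, adjusted p = 1.87e-08, and for ASNS, PHGDH and PSAT1 the TNFα libraries lay wholly above the E2 libraries. The stress regulators moved with them. DDIT4, an inhibitor of mTORC1 (chromosome 10, 72273919 to 72276039), was at 24.8, 22.8 and 31.7 CPM with E2 and 635, 557 and 566 CPM with TNFα (-4.46 ± 0.165, adjusted p = 2.22e-11). TRIB3, a pseudokinase that restrains AKT, was at 72.1, 112 and 69.1 CPM and 524, 361 and 614 CPM (-2.57 ± 0.214, adjusted p = 2.14e-07), and DDIT3, which encodes CHOP, at 7.7, 5.2 and 7.17 CPM and 36.7, 31.7 and 43 CPM (-2.44 ± 0.201, adjusted p = 1.85e-07). NUPR1, a small stress-induced chromatin protein, was nearly without reads in E2 libraries (0.259, 0 and 0.0853 CPM) and at 8.4, 6.2 and 10.5 CPM with TNFα (-5.80 ± 0.512, adjusted p = 3.61e-07). SESN2 (-2.35), CHAC1 (-2.21), GPT2 (-2.06), PCK2 (-2.02), JDP2 (-2.65) and CTH (-1.62) were higher in TNFα as well, and CTH was under the threshold without E2 replicate 2 (-1.46). PPP1R15A, which encodes the phosphatase subunit GADD34 that ends the stress response, was one of the most abundant genes higher in TNFα, at 323, 399.5 and 359.8 CPM and 1280.3, 919.8 and 1531 CPM (-1.79 ± 0.176, adjusted p = 1.36e-06).

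Not every gene of amino acid stress followed. The transporter genes SLC7A5 (0.33, adjusted p = 0.137) and SLC3A2 (0.05, adjusted p = 0.835) did not pass the test, and ATF5 had the opposite sign (1.41, adjusted p = 1.39e-06). Of 20 cytosolic aminoacyl-tRNA synthetase genes, which charge tRNAs, 14 were higher in TNFα by the adjusted p alone and 1 higher in E2. Past the threshold of size was 1 gene (5%, against 5.89% of all genes tested), AARS (-1.52 ± 0.137, adjusted p = 5.16e-07). That call was lost with the size factors of DESeq2 (-1.48), and without E2 replicate 1 (-1.46), TNFα replicate 1 (-1.49) or TNFα replicate 3 (-1.44). Among genes of the unfolded protein response, ERN1, the sensor of misfolded protein in the endoplasmic reticulum, was higher in TNFα, at 3.04, 6.5 and 7.0 CPM against 26.2, 19.1 and 29.4 CPM (-2.21 ± 0.278, adjusted p = 1.72e-05). The cytosolic chaperones HSPB1 (1.79, adjusted p = 2.81e-07) and HSPA8 (1.51, adjusted p = 0.000113) were higher in E2. HSPA8 had 4512, 2351 and 4034 CPM in E2 and 1260.3, 1627 and 945 CPM in TNFα libraries. The call was lost without E2 replicate 1 (1.35), E2 replicate 3 (1.43), TNFα replicate 1 (1.498) or TNFα replicate 3 (1.33).

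Some of the other large differences toward TNFα were of genes that are not on the NFκB or ATF4 lists used here. This does not place them outside those programs. GDF15, a stress hormone of the TGFβ family, was at 0, 0.578 and 0.0853 CPM with E2 and 30.0, 17.2 and 44.9 CPM with TNFα (-7.62 ± 0.583, adjusted p = 7.3e-08). DMBT1, a scavenger receptor of mucosal surfaces, was at 2.01, 0.867 and 2.65 CPM and 75.9, 54.1 and 84.3 CPM (-5.19 ± 0.276, adjusted p = 1.15e-09). MEFV, which encodes pyrin, an inflammasome sensor, was at most at 3 counts in each E2 library and at 3.77, 3.52 and 4.74 CPM in TNFα libraries, 66.6-fold (95% interval 18.3 to 552) higher. G0S2, an inhibitor of the triglyceride lipase ATGL, was at 13.9, 15.2 and 15 CPM against 445, 385 and 459.7 CPM (-4.87 ± 0.155, adjusted p = 4.29e-12). None of these 4 genes had overlapping groups, but the largest differences were named only among genes without overlap, so this is no result.

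In the plasminogen system, PLAU, which encodes urokinase, was at 165, 184 and 187 CPM in E2 and 1099, 939.7 and 1039 CPM in TNFα libraries (-2.52 ± 0.138, adjusted p = 1.56e-09). SERPINB2, which encodes an inhibitor of urokinase, was higher in TNFα with it (-3.10 ± 0.29, adjusted p = 7.67e-07). Among EGF receptor genes, EGFR was at 54.9, 60.8 and 76 CPM and 232, 215 and 268 CPM (-1.90 ± 0.153, adjusted p = 1.46e-07), and the ligands HBEGF (-1.63) and EREG (-1.53) were higher in TNFα. HBEGF lost the call without E2 replicate 1 (-1.49). EREG lost it without E2 replicate 1 (-1.45), E2 replicate 2 (-1.46), TNFα replicate 2 (-1.48) or TNFα replicate 3 (-1.497). The ligand TGFA had the opposite and larger difference, at 639, 478 and 642 CPM in E2 against 31.5, 24.5 and 34.4 CPM in TNFα libraries (4.28 ± 0.18, adjusted p = 8.49e-11). Of the dual specificity phosphatases that switch off ERK, DUSP5 (-2.24 ± 0.153, adjusted p = 2.06e-08) and DUSP6 (-1.68 ± 0.175, adjusted p = 2.36e-06) were higher in TNFα and DUSP4 (1.52 ± 0.124, adjusted p = 1.73e-07) higher in E2. With library size only, DUSP4 was at 1.40 and not called.

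Among 24 immediate early factors MYC and ATF3 (8.33%) passed the thresholds, both higher in TNFα. Of all genes tested, 5.89% passed them in either direction, so the small counts in this paragraph are near or above that share. MYC was at 177, 162 and 203 CPM with E2 and 699, 574 and 701 CPM with TNFα (-1.86 ± 0.143, adjusted p = 8.73e-08), and ATF3, which is also on the ATF4 list, at 11.3, 11.6 and 10.9 CPM and 63.7, 51.8 and 81.9 CPM (-2.55 ± 0.188, adjusted p = 5.36e-08). Of nuclear receptors, VDR, the vitamin D receptor (-2.26 ± 0.154, adjusted p = 2.11e-08), and NR3C1, the glucocorticoid receptor (-1.53 ± 0.227, adjusted p = 8.51e-05), were higher in TNFα, and NR3C1 was under the threshold without E2 replicate 2 (-1.32) or TNFα replicate 2 (-1.49). BBC3, which encodes the BH3-only protein PUMA, was the 1 member (5.26%) of 19 BCL2 family and IAP genes past the thresholds, at 3.75, 3.47 and 4.95 CPM against 36.1, 31.8 and 37.8 CPM (-3.11 ± 0.202, adjusted p = 1.2e-08). KDM6B, an H3K27 demethylase, was the 1 gene (7.69%) of 13 PRC2 and H3K27 demethylase genes past them (-1.61 ± 0.175, adjusted p = 3.62e-06), and this call was lost without E2 replicate 1 (-1.45) and after removal of GC and length trends (-1.40). HK2, the hexokinase of many tumors (-2.09), and VEGFA, the angiogenic factor (-1.60), were the 2 (5.88%) of 34 genes of glycolysis and hypoxia past them, both higher in TNFα. PTGES, the terminal enzyme of prostaglandin E2 synthesis, was at 3.56, 2.6 and 1.96 CPM and 19.2, 17 and 21.1 CPM (-2.79 ± 0.249, adjusted p = 4.7e-07).

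The genes higher in E2 included known estrogen targets. Of 28 tested estrogen response genes, 10 (35.7%) were higher in E2 and 1 (3.57%), PTGES, higher in TNFα, with a median log2 fold change of 0.80. Of all genes tested, 3.32% were higher in E2 and 2.57% higher in TNFα. By the adjusted p alone, 17 of the 28 were higher in E2 and 6 higher in TNFα. GREB1, a coactivator of estrogen receptors (chromosome 2, 11534116 to 11642788), was at 42.5, 43.8 and 58.2 CPM in E2 and 4.44, 3.49 and 3.89 CPM in TNFα libraries (3.61 ± 0.198, adjusted p = 1.65e-09). TFF1, a secreted peptide that is a classical target of the receptor (chromosome 21, 42362282 to 42366535), had no reads in any TNFα library and 0.647, 0.867 and 1.11 CPM with E2, at least 7.77-fold higher. PDZK1, a scaffold protein, was at 21.1, 13.6 and 17.6 CPM and 0.349, 0.247 and 0.998 CPM (5.16 ± 0.391, adjusted p = 6.93e-08). IGFBP4, which binds insulin-like growth factors, was the most abundant gene higher in E2, at 8793, 11467 and 8609.9 CPM against 2073, 1859 and 2475 CPM (2.17 ± 0.172, adjusted p = 1.21e-07). Per kilobase, its mean level was 4304 RPKM in E2 and 955 RPKM in TNFα libraries. CCN5, a secreted growth regulator, had almost no reads in TNFα libraries (13.9, 14.7 and 11.7 CPM against 0, 0 and 0.299 CPM, 7.39 ± 0.602, adjusted p = 1.38e-07). CTSD, a lysosomal protease, lay just under the threshold of size at 1.497 (adjusted p = 1.85e-06) and past it when E2 replicate 1 was left out (1.61), and the cyclin gene CCND1 was under it at 1.43 (adjusted p = 7.67e-07). CA12 (-0.10, adjusted p = 0.84) and AREG (-0.08, adjusted p = 0.788) did not pass the test.

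Within 250 bases before and 50 after the start, none of 270 promoters of genes higher in E2 and none of 213 of genes higher in TNFα held the full estrogen response element GGTCANNNTGACC on either strand, and 1 of the 8971 promoters (0.0111%) did. This says only that these letters are not in these windows.

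Secreted cystatins, inhibitors of cysteine proteases, gave some of the largest values. CST1 (chromosome 20, 23747553 to 23750937) was at 605, 715 and 599.5 CPM with E2 and 9.58, 8.95 and 9.53 CPM with TNFα (6.10 ± 0.162, adjusted p = 1.08e-12). CST4 was at 307, 378 and 307 CPM and 7.13, 6.14 and 7.24 CPM (5.60 ± 0.167, adjusted p = 2.4e-12), and CST2 at 48.1, 56.8 and 50.3 CPM and 0.127, 0.154 and 0 CPM (8.84 ± 0.331, adjusted p = 2.22e-11). CST5 had no reads in TNFα libraries and 14.8, 17.2 and 16 CPM with E2, at least 142-fold higher. These 4 genes lie side by side on chromosome 20, and because CST1, CST2 and CST4 are close copies, reads of one may be counted in another. CST7, a cystatin of leukocytes in the same family, was the member higher in TNFα (-2.51 ± 0.343, adjusted p = 3.71e-05).

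Keratins were found in both directions. Of 13 keratin genes, 5 (38.5%) were higher in E2 and 2 (15.4%) higher in TNFα, against 3.32% and 2.57% of all genes tested. KRT13, a keratin of stratified mucosa (chromosome 17, 41500981 to 41505613), was at 129, 144 and 132 CPM in E2 and 0.19, 0.0617 and 0 CPM in TNFα libraries (10.38 ± 0.308, adjusted p = 2.4e-12). KRT19, of simple epithelia, was at 2509, 2819 and 1914 CPM and 287, 249 and 240.0 CPM (3.22 ± 0.171, adjusted p = 1.15e-09), and the abundant KRT8 at 3288, 3690.0 and 2803 CPM and 1068, 1015 and 912 CPM (1.71 ± 0.15, adjusted p = 3.92e-07). KRT17 (4.57) and KRT15 (2.66) were higher in E2 too. KRT13, KRT15, KRT19, KRT17 and the junction gene JUP (1.57) lie within 1 stretch of chromosome 17 (41500981 to 41786712). That stretch starts and ends at called genes by definition, and 5 of its 7 tested genes were higher in E2. JUP was under the threshold without E2 replicate 2 (1.42). The hair keratins KRT81 (-3.72 ± 0.249, adjusted p = 1.71e-08) and KRT86 (-3.12 ± 0.443, adjusted p = 5.3e-05), which are close copies of each other, were higher in TNFα. Among S100 proteins, S100A7 had no reads in TNFα libraries and 17.1, 10.1 and 11.8 CPM with E2 (at least 116-fold higher), and S100A9 was at 13, 10.1 and 9.22 CPM and 0.0951, 0.0308 and 0.25 CPM (6.55 ± 0.461, adjusted p = 2.62e-08). S100A13 (1.57 ± 0.142, adjusted p = 5.37e-07) was close to the threshold and lost the call without E2 replicate 1 (1.48) or TNFα replicate 1 (1.497), with library size only (1.44) and after removal of GC and length trends (1.36). MYL6, a myosin light chain, was abundant and also close to it, at 2340.2, 1999 and 1879.6 CPM and 703, 739 and 594 CPM (1.61 ± 0.148, adjusted p = 6.1e-07). Its call was lost after removal of GC and length trends (1.17) and with library size only (1.48).

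Markers of the epithelial and of the mesenchymal state were found in both directions. CDH1, which encodes E-cadherin, was at 30.5, 33.9 and 50.4 CPM with E2 and 1.74, 2.01 and 1.7 CPM with TNFα (4.39 ± 0.239, adjusted p = 1.47e-09), and CDH2, which encodes N-cadherin, at 17.1, 11.1 and 16.4 CPM and 1.2, 1.11 and 1.05 CPM (3.73 ± 0.27, adjusted p = 4.37e-08). Both cadherins were therefore higher in E2, without overlap between the groups. The transcription factor ELF3 (2.82 ± 0.134, adjusted p = 2.97e-10), the cadherin CDH3 (2.63 ± 0.17, adjusted p = 1.1e-08) and the repressor OVOL2 (2.46 ± 0.423, adjusted p = 0.000309) were higher in E2, while the claudins CLDN1 (-3.83 ± 0.288, adjusted p = 6.52e-08) and CLDN3 (-2.23 ± 0.414, adjusted p = 0.000625) were higher in TNFα. FN1, which encodes fibronectin and is read as a mesenchymal gene, was at 2946, 4040.1 and 5336 CPM with E2 and 865, 878 and 840.1 CPM with TNFα (2.25 ± 0.19, adjusted p = 2.44e-07), and the mesenchymal matrix gene TGFBI was higher in TNFα (-1.73 ± 0.156, adjusted p = 5.37e-07). Of 19 epithelial genes 5 (26.3%) were higher in E2 and 2 (10.5%) in TNFα, and of 12 mesenchymal genes 2 (16.7%) and 1 (8.33%). The shares of all genes tested were 3.32% and 2.57%.

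The matrix and its enzymes held some of the most abundant differences. LOXL4, a lysyl oxidase that crosslinks collagen (chromosome 10, 98247686 to 98268250), was at 3288, 4187 and 4017 CPM in E2 and 66, 52.1 and 77.3 CPM in TNFα libraries (5.88 ± 0.201, adjusted p = 9.3e-12), and LOX at 30.5, 27.6 and 32.6 CPM and 5.64, 7.74 and 6.19 CPM (2.21 ± 0.189, adjusted p = 2.81e-07). COL17A1, the hemidesmosomal collagen, was at 78.5, 99.9 and 111 CPM and 4.03, 4.04 and 2.0 CPM (4.81 ± 0.24, adjusted p = 5.32e-10). The leukocyte integrin chain ITGB2 (4.04) and COL5A1 (1.64) were higher in E2, and LAMA4 (-2.68), COL8A1 (-2.0) and the metalloprotease ADAMTS9 (-1.67) higher in TNFα. ADAMTS9 was under the threshold without TNFα replicate 2 (-1.49). Of the TGFβ and BMP pathway, INHBB, a subunit of activin, was at 42.5, 32.4 and 47.8 CPM and 0.698, 0.555 and 0.848 CPM (5.89 ± 0.251, adjusted p = 8.82e-11) and the coreceptor TGFBR3 was higher in E2 (1.76 ± 0.323, adjusted p = 0.000577), while SMAD3 (-1.90 ± 0.135, adjusted p = 3.7e-08) and the BMP modulator BMPER (-2.78 ± 0.437, adjusted p = 0.000142) were higher in TNFα.

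Several of the largest differences were of genes with next to no reads in TNFα libraries. MAB21L4 (chromosome 2, 240886048 to 240896889) had no reads in TNFα libraries and 33.4, 46.9 and 31.7 CPM with E2, at least 332-fold higher. F13A1, a subunit of the clotting factor that crosslinks fibrin, was at 33, 28.7 and 35.1 CPM with E2 and at most at 3 counts in each TNFα library, 2759-fold (95% interval 494 to 109100.0) higher. GJA5, the gap junction protein connexin 40, and ACKR3, the scavenging receptor of CXCL12, had no reads in TNFα libraries either and were at least 129-fold and at least 61.1-fold higher. The serpin gene SERPINA9 was 595-fold (95% interval 164 to 4926) higher in E2. The mucin glycosyltransferase gene GCNT3 was 398-fold (95% interval 109 to 3299) higher. The lowest E2 library among these 6 genes was at 5.63 CPM, in GCNT3.

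A set of interferon-stimulated genes was higher in E2. Of 35 tested (47 listed), 14 (40%) were higher in E2 and 1 (2.86%) higher in TNFα, with a median log2 fold change of 0.50. Of all genes tested, 3.32% were higher in E2 and 2.57% higher in TNFα. By the adjusted p alone, 20 of the 35 were higher in E2 and 3 higher in TNFα. OASL, an antiviral protein of the oligoadenylate synthetase family (chromosome 12, 121020292 to 121039242), was at 128, 114 and 115 CPM with E2 and 15.2, 12.9 and 16.6 CPM with TNFα (3.00 ± 0.151, adjusted p = 6.21e-10). OAS1, which makes the 2-5A signal for RNase L, was at 9.51, 8.67 and 12.2 CPM and 1.78, 1.39 and 1.55 CPM (2.69 ± 0.276, adjusted p = 2.02e-06). IFIT1, which binds viral RNA caps (chromosome 10, 89392546 to 89406487), was at 39.4, 21.7 and 36.8 CPM and 4.31, 4.04 and 4.24 CPM (2.97 ± 0.229, adjusted p = 8.74e-08), and its neighbours IFIT3 (1.77 ± 0.194, adjusted p = 4.06e-06) and IFIT2 (1.99 ± 0.241, adjusted p = 1.15e-05) were also higher in E2. For each of these 5 genes every E2 library was above every TNFα library. ISG15, a ubiquitin-like modifier, was the most abundant of the 14, at 572, 654 and 380.3 CPM and 156, 131 and 145 CPM (1.90 ± 0.178, adjusted p = 7.87e-07), and USP18, which removes it, was at 7.24, 7.8 and 5.97 CPM and 1.59, 1.17 and 1.55 CPM (2.28 ± 0.304, adjusted p = 2.92e-05). IRF9, the DNA-binding part of the ISGF3 complex, was higher in E2 (1.54 ± 0.156, adjusted p = 1.75e-06), but its call was lost without TNFα replicate 3 (1.499), after removal of GC and length trends (1.35) and with library size only (1.42). STAT2, which acts in the same complex, did not pass the test (0.20, adjusted p = 0.325). DDX60 was at 0.776, 0.578 and 4.27 CPM against 0.571, 0.771 and 0.649 CPM, and its groups overlapped (adjusted p = 0.0711). Its call was lost without E2 replicate 3 (0.08) and also without TNFα replicate 1 (1.42), 2 (1.65) or 3 (1.51). The gene higher in TNFα was IRF1, a transcription factor that is also a direct NFκB target, at 24.9, 31.3 and 26.5 CPM and 372, 337 and 376 CPM (-3.72 ± 0.148, adjusted p = 4.94e-11). With the housekeeping factor in the fit, 1 of the 35 genes was called higher in E2 in place of 14.

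Of the 9 interferon-stimulated genes higher in E2 that have a promoter in the table, 7 (77.8%) hold the interferon response motif TTTCNNTTTC within it, against 2.68% of all 8971. Of the 15 that were not called and have a promoter, 11 (73.3%) hold it too. The windows below are shown as examples, 5′ to 3′ from RefSeq (GRCh38.p14), with each match on either strand in capitals, for IFIT1 (chr10:89392495-89392554, plus strand), IFIT3 (chr10:89327850-89327909, plus strand), ISG15 (chr1:1013365-1013424, plus strand) and IFI27 (chr14:94110616-94110675, plus strand).
IFIT1: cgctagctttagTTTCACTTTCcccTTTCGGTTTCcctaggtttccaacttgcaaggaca
IFIT3: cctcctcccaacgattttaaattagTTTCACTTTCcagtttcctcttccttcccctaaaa
ISG15: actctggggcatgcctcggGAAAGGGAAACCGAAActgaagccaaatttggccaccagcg
IFI27: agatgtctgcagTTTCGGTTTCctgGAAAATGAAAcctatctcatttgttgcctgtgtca
IFIT1, ISG15 and IFI27 each show 2 matches in the printed window. IFI27 was at 73.1, 72.5 and 69.2 CPM in E2 and 12.3, 13.4 and 20.4 CPM in TNFα libraries (2.23 ± 0.187, adjusted p = 2.32e-07).

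Genes of proliferation did not pass the thresholds more often than all genes tested (5.89% in either direction). Of 59 mitotic genes none was significantly regulated in either direction with edgeR (median -0.19), and by the adjusted p alone 16 were higher in TNFα and 3 higher in E2. Of 50 DNA replication genes 2 (4%) were higher in E2, with a median of -0.01. These were GINS4, a subunit of the replicative helicase (1.87 ± 0.13, adjusted p = 2.54e-08), and CCNE2, a cyclin of the G1 to S transition at 2.2, 0.867 and 0.939 CPM against 0.412, 0.864 and 0 CPM (1.6 ± 0.729, adjusted p = 0.0969). CCNE2 lost the call without E2 replicate 1 (0.997), E2 replicate 3 (1.83), TNFα replicate 1 (1.54) or TNFα replicate 3 (1.12). For cholesterol synthesis, 17 of 25 genes were higher in E2 by the adjusted p alone and 1 higher in TNFα, with a median of 0.65, and HMGCS1, which makes the precursor of mevalonate, was the 1 gene past the threshold of size (1.62 ± 0.252, adjusted p = 0.000131). That call was lost without E2 replicate 1 (1.42) or TNFα replicate 3 (1.44). None of 20 fatty acid synthesis genes, 19 MHC class I genes or 7 metallothioneins was called. Of 20 housekeeping genes none was called either, but 8 were higher in E2 by the adjusted p alone and 3 higher in TNFα, with a median of 0.21. PPIA (0.86, adjusted p = 0.000237) and PGK1 (0.69, adjusted p = 0.00123) had the largest of these differences, and both were near 0 with the housekeeping factor in the fit.

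**Figure D2:**
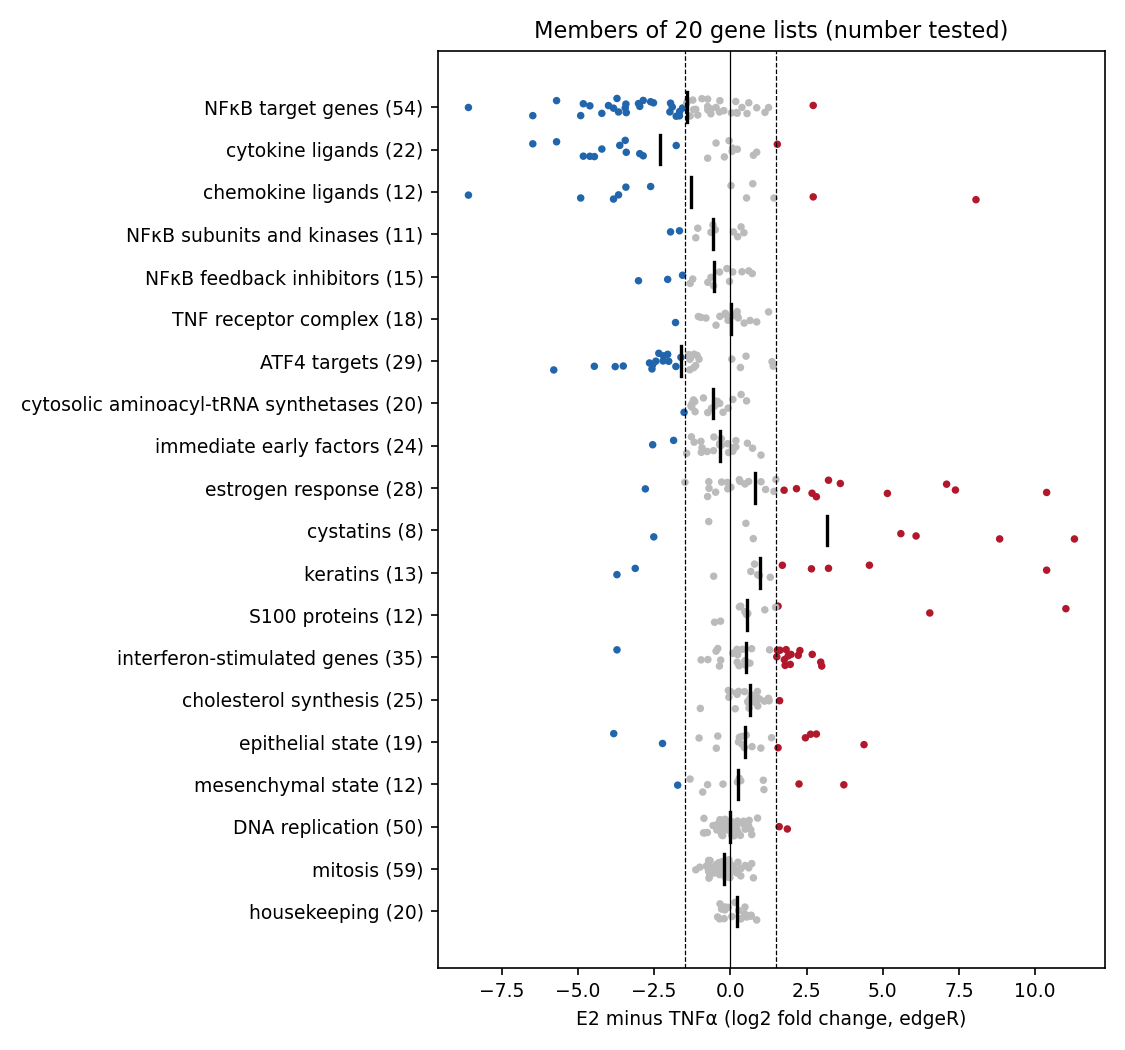
Each point is a tested member of a gene list, with its log2 fold change, E2 minus TNFα, on the x axis. Black bars are list medians, the thin line is the median of all genes (-0.02) and dashed lines are the thresholds of 1.5. Blue points (higher in TNFα) number 26 among NFκB targets and 15 among ATF4 targets, and red points (higher in E2) number 10 among estrogen response genes and 14 among interferon-stimulated genes.

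The 3 E2+ TNFα libraries, which counted in the filter on low values but not in the fit, were then placed between the 2 groups. For each significantly regulated gene their mean log2 level was expressed as a share of the way from the TNFα mean (0) to the E2 mean (1). For the 375 genes higher in E2 the median position was 0.985, and 370 lay nearer the E2 mean. The E2+ TNFα libraries overlapped the range of the E2 libraries in 305 of these genes, lay above it in 14 and lay between the groups in 40. The 5 that lay nearer the TNFα mean, named after their values were seen, were MIR130A, RPS27 and the cyclophilin copies PPIAL4A, PPIAL4C and PPIAL4G, which are short or have close copies. The call was lost for MIR130A without E2 replicate 1 (4.82), for RPS27 without E2 replicate 2 (1.42) or TNFα replicate 1 (1.28), and for PPIAL4C without TNFα replicate 1 (1.40) or 2 (1.59). After removal of GC and length trends RPS27 was at 0.98 and PPIAL4C at 1.46, and neither was called. CST1, for example, was at 585, 507 and 604 CPM with E2+ TNFα, GREB1 at 48.5, 47.8 and 53.9 CPM, LOXL4 at 3739, 3396 and 4619 CPM and OASL at 109, 96.7 and 108 CPM.

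For the 291 genes higher in TNFα the median position was 0.824. For 235 of them the E2+ TNFα libraries lay nearer the E2 mean, and for 56 nearer the TNFα mean. No vehicle library is in the contrast, so whether a gene was raised by TNFα or lowered by E2 was not tested. The ranges overlapped that of the E2 libraries in 182 genes, lay between the groups in 74 and overlapped that of the TNFα libraries in 19.

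The NFκB and the ATF4 program, both higher in TNFα, took different positions. Of the 26 NFκB target genes, 20 lay nearer the TNFα mean and 6 nearer the E2 mean, and in 20 the E2+ TNFα libraries lay wholly between the groups. TNFAIP3 was at 381, 371 and 382 CPM (position 0.138), CXCL1 at 268, 258 and 256 CPM (0.243), IL6 at 341, 312 and 375 CPM (0.434) and TNF at 9.48, 7.3 and 8.21 CPM (0.421). IL1B, at 152, 143 and 141 CPM, was past the middle (0.593), as was CSF3 at 2.56, 2.91 and 4.59 CPM (0.788). IL11 (1.01) and ALOX5AP (1.24) were at the E2 level or beyond it. At the other end, TNFAIP2, a TNFα-induced gene of the exocyst family, was at 1595, 1529 and 1924 CPM with E2+ TNFα against 1547, 1502 and 1567 CPM with TNFα and 360.5, 423 and 384 CPM with E2 (-0.0614). By contrast, all 15 ATF4 targets lay nearer the E2 mean, at positions of 0.779 to 1.28, and their ranges overlapped the E2 range in 10, were below it in 3 and between the groups in 2. ASNS was at 26.7, 28.5 and 23.4 CPM with E2+ TNFα, DDIT4 at 23.5, 21.8 and 32.9 CPM and TRIB3 at 62.6, 54.6 and 66.9 CPM. E2+ TNFα libraries differed from E2 and from TNFα libraries with a trend in GC content (Spearman rho across genes -0.363 and -0.217). With the trends of each library with GC content and length removed, 370 and 233 genes lay nearer the E2 mean, and 6 NFκB and 15 ATF4 genes.

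**Figure D3:**
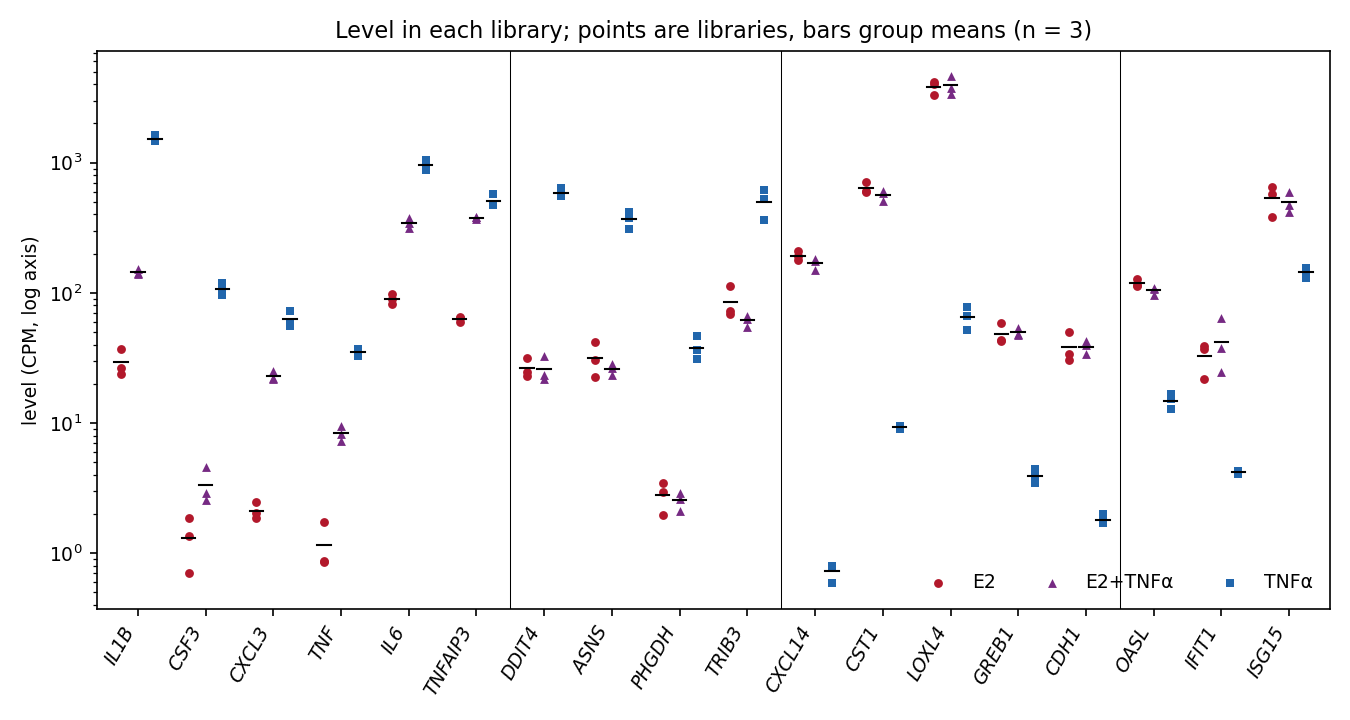
Level of 18 genes in each library (CPM, log axis), for E2 (circles), E2+ TNFα (triangles) and TNFα (squares), with bars at group means of 3 libraries. From left to right, NFκB targets in E2+ TNFα libraries lie between the groups, and the 4 ATF4 targets at the E2 level, or for TRIB3 below it. The genes higher in E2 and the 3 interferon-stimulated genes lie near the E2 level.

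**Figure D4:**
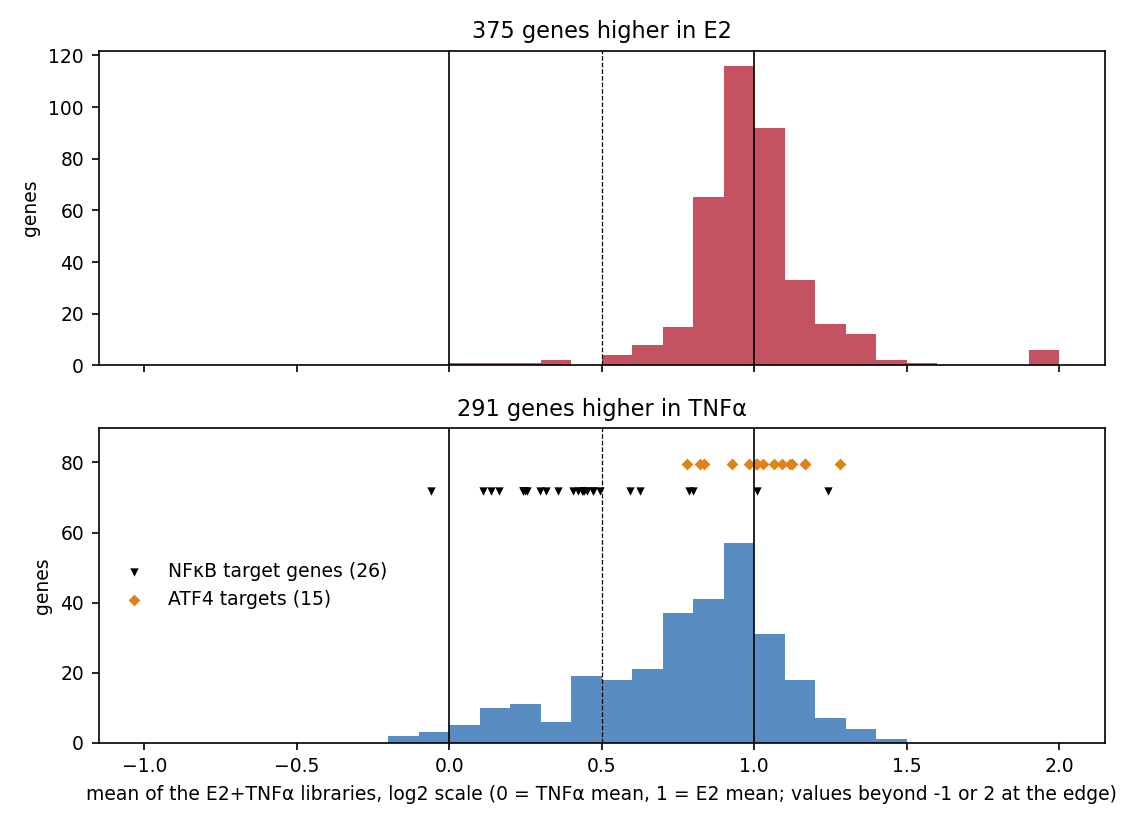
Number of genes by the position of the E2+ TNFα mean between the TNFα mean (0) and the E2 mean (1) on the log2 scale, for the 375 genes higher in E2 (top) and the 291 higher in TNFα (bottom). Triangles and diamonds mark 26 NFκB target genes, of which 20 lie below 0.5, and 15 ATF4 targets, all of which lie above 0.5.

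As a description, promoter letters were counted by the same split. Of genes higher in TNFα, the NFκB motif was in 9 of 44 promoters (20.5%) where E2+ TNFα libraries lay nearer TNFα and in 4 of 169 (2.37%) where they lay nearer E2. Of the 9, 8 are on the NFκB target list. The AP-1 motif TGANTCA was in 9.09% and 7.10% of these promoters, in 9.63% of promoters of genes higher in E2 and in 4.41% of all promoters. The motif TGATGNAAT, part of the composite site of ATF4, was in none of the 13 promoters of the ATF4 targets higher in TNFα and in 0.379% of all promoters.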

How the data were processed

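RNA was sequenced from MDA-MB-231-ERβ cells, with libraries made by a stranded mRNA kit. The submitters' processing notes name TopHat2 (2.1.0), featureCounts and hg38. The strand setting of the counting is not given in the sources used here, so values of antisense or overlapping genes are uncertain. The deposited table holds counts of reads per gene, as the authors counted them, beside exon coordinates and the exon length of each gene in bases, which was used to compute RPKM here. Of 12567 entries, 46 exact repeats and 70 second symbols of a locus with identical counts were dropped.

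The 3 E2 and the 3 TNFα libraries alone entered the fit. TMM normalization and the quasi-likelihood test of edgeR (4.0.16, R 4.3.3) were used on the counts, with Benjamini-Hochberg adjustment over all 11303 genes tested. The thresholds were an absolute log2 fold change of 1.5, a p of 0.05 and an adjusted p of 0.1. The steps were tested on simulated data. The study corrected batches with RUVseq on housekeeping genes of its own choice, whose list is not given in the sources used here, and the housekeeping factor tried here rests on a list chosen for this work. Other normalizations, filters, fits (DESeq2 1.42.0, a replicate block, GC and length trends, a housekeeping factor) and the omission of each library were tried. The alternatives for the position of E2+ TNFα libraries were chosen after seeing the data. Coordinates of genes are those of the deposited table. Promoters, 250 bases before to 50 after the start, came from RefSeq (GRCh38.p14) and matched 8971 of the genes by symbol. Of several RefSeq starts, the one nearest the deposited gene start was used, at most 100000 bases away. The interferon motif was added after values had been seen.

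The members and gene lists were chosen with earlier results of these data known. By rule the named genes were ESR2, RELA and TNF, the 12 largest differences in each direction (mean of at least 1 CPM, no overlap), the 5 called genes of highest mean RPKM in each direction, the p65 targets of the study, and up to 4 called members of each list in each direction, or up to 3 members where none was called. Not all of these are printed, and some genes are not reported here. Other genes, among them NFKBIA, ICAM1, BIRC3, ATF4, DDIT3, PSAT1, GREB1, ISG15, DDX60, CTSD and CCND1, were named after their values were seen.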

Additional observations from a re-analysis of the deposited data

How the results depend on the processing

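The direct comparison gave 666 genes past the thresholds, and 643 to 713 when any 1 library was left out, with 356 to 404 higher in E2 and 284 to 340 higher in TNFα. With library size only, the median of all genes shifted by -0.12 on the log2 scale, and 321 genes were higher in E2 and 351 in TNFα. Without a filter 865 genes passed, and 513 with at least 10 counts in each of the 6 libraries. The housekeeping factor changed the balance most, with 187 genes higher in E2 and 349 in TNFα, 186 of the 666 calls kept and 78 of opposite sign. Among named genes it turned the sign, without passing the test, of HSPA8 to -0.45, HMGCS1 to -0.65, CCNE2 to -3.11 and ERN1 to 1.27, and LST1 among neighbouring genes to 2.06. Many other named genes kept their sign but lost the call, among them MYC (-1.63), EGFR (-1.05), PLAU (-1.87), RELB (-1.02), CSF3 (-3.79), TRIB3 (-1.15), CDH2 (2.71), IFIT1 (1.52) and ISG15 (1.92). IL1B, ASNS, CST1 and LOXL4 were among those that kept it. Genes that were not called also turned sign with it, BIRC3 to -0.98, ICAM1 to 0.13, PPIA to -0.06, PGK1 to -0.02, AREG to 1.06, AXL to 0.25, COL1A1 to 0.49 and VIM to -0.19, none past the test. With 6 libraries this factor and the treatment can hardly be told apart. Removal of GC and length trends also ended the calls of TNFSF9 (1.35), NR3C1 (-1.32), EREG (-1.48) and HSPA8 (1.45), and library size only those of TNFSF9 (1.41), HSPA8 (1.39), JUP (1.44) and DDX60 (1.42). Same-numbered libraries deviated from their group means with correlations of -0.21, -0.35 and 0.0045, and differently numbered ones with -0.15 to 0.31. Deviations of 3 libraries from their own mean sum to 0, so these values cannot show whether the numbers pair the samples. With the replicate block 644 genes passed, 634 of them among the 666. The positions of the E2+ TNFα libraries, with alternatives chosen after seeing the data, gave 365 to 370 of the genes higher in E2 and 230 to 240 of those higher in TNFα nearer E2 when any 1 of the 9 treated libraries was left out. Depth limits genes near 0 in E2 replicate 2, which has 7.65 M reads.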

Other observations

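Some of the significantly regulated genes lie in runs of neighbours that moved in 1 direction. On chromosome 10 the 3 tested genes within such a run, IFIT2, IFIT3 and IFIT1, were all higher in E2. On chromosome 4 the 4 tested genes CXCL8, CXCL1, CXCL3 and CXCL2 were all higher in TNFα, and so were the 4 tested genes LTA, TNF, LTB and LST1 on chromosome 6, of which LST1 was not called without E2 replicate 1 (-1.16) and fell to just under the threshold without TNFα replicate 3. The runs are given as positions only, and close copies among them share reads. Each run starts and ends at called genes by definition. Only tested genes inside it were counted, so the share called within a run is no result. In other runs fewer of the tested genes were called in that direction. On chromosome 1, for example, S100A9, S100A7 and S100A13 were 3 of 10 tested genes.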
